A study of Paeonia lactiflora with 8 samples.

Results

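Carbon fixation and Calvin cycle enzymes were followed in the leaf, fruit, flower and root of herbaceous peony, Paeonia lactiflora, as 105 of the 30177 assembled genes in the table. Of these, 98 were chosen because the table places them on the KEGG map for carbon fixation, and 7 were added by name because their symbol begins with HPR, the abbreviation of hydroxypyruvate reductase. RBCS, GAPA and GAPB IDs, which the name rule also takes, were already on the map. The rule used annotation and no measured value, but it was set with earlier results of these data known. Each organ had 2 biological replicates, 8 libraries in all, and fruit was young fruit while leaf, flower and root were collected at blossom. The labels name no treatment, cultivar or genotype, each library held poly(A) RNA of 1 organ, and it is not stated whether plants were pooled. The organs were chosen by the study because they differ in paeoniflorin, a monoterpene glycoside of peony. Organ and period cannot be told apart for fruit, and a difference between whole organs does not separate fewer cells of a type from less RNA per cell.

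In the Calvin cycle of the chloroplast stroma, Rubisco joins CO2 to ribulose bisphosphate, phosphoglycerate kinase and glyceraldehyde-3-phosphate dehydrogenase reduce the product to triose phosphate, and a set of aldolases, phosphatases, transketolases, isomerases and kinases rebuilds the acceptor. Many of the same reactions run in the cytosol as glycolysis or sucrose synthesis, on isoforms encoded by other nuclear genes. The map also holds enzymes of 4-carbon acid metabolism, such as phosphoenolpyruvate carboxylase and malic enzyme, which drive C4 photosynthesis in some plants and refill organic acid pools in most others. Hydroxypyruvate reductase belongs to photorespiration, the route that returns carbon lost to the oxygenase reaction of Rubisco.

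By the words of the table's annotation, 34 of the 105 members were plastid, 33 cytosolic, 13 mitochondrial and 4 peroxisomal, and 21 were unassigned. By role, 7 belonged to carboxylation, 8 to reduction, 31 to regeneration, 52 to C4-type and anaplerotic reactions and 7 to hydroxypyruvate reduction. Symbols come from other species, and compartments follow annotation words that can be wrong for a single ID. IDs that share a component number, such as comp11576_c0 and comp11576_c1, may be pieces or alleles of 1 gene whose reads the counting divided, and members of 1 family can share reads. Levels are the authors' TPM (transcript abundance corrected for length and scaled to the same total in each library). Log2 fold changes ± SE and adjusted p are from edgeR's quasi-likelihood test on the estimated counts, adjusted by Benjamini-Hochberg over the 27939 genes tested. To pass, a member needed an adjusted p under 0.05 and a log2 fold change of 1 or more in either direction. Of the 105 members, 102 were tested, and PEP carboxykinase pck-1 (comp110053_c0), RBCS comp26172_c0 and fructose-bisphosphatase comp55855_c0 did not reach the count filter. With 2 libraries per organ, a p-value reflects the spread between these samples alone.

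Total estimated counts ran from 30399492 to 49421130 per library, and replicates of 1 organ correlated at 0.874 to 0.914 over genes (Pearson's r of log CPM, counts scaled by library total, and genes are not independent replicates). The organ labels were checked against marker genes. Antenna and photosystem genes (48 IDs with CAB, LHC, PSA or PSB symbols) summed to 169385 and 122734 TPM in leaf, 14765 and 3866 in fruit, 1987 and 2242 in flower and 181 and 540 in root. Petal and stamen MADS genes (3 IDs) reached 1017 and 905 TPM in flower and at most 10 TPM elsewhere. The 4 IDs of the root list (SHR, SCR and CASP) summed to at most 33.2 TPM, in flower 2, and did not mark root. A pair of libraries stood apart: flower 2 held 72301 TPM of TAR1-A IDs, against 6491 in flower 1, and fruit 2 held 188618 TPM of 29 seed storage IDs, against 2056 in fruit 1. Counts of members called are therefore also given without these 2 libraries, and their part in the differences was not tested.

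The members together made up 66681 and 72285 TPM in leaf, 12460 and 6641 in fruit, 4935 and 4920 in flower and 7469 and 6154 in root. Leaf therefore stood above the other 6 libraries by a wide margin, while flower and root lay close to each other. Plastid members accounted for 57458 and 63103 TPM in leaf, 6551 and 2115 in fruit, 720 and 907 in flower and 981 and 690 in root. Cytosolic members accounted for 5541 and 4817 TPM in leaf, 2936 and 2181 in fruit, 1890 and 1672 in flower and 3671 and 3221 in root. The aldolases comp16699_c0 and comp16699_c1, which varied like plastid IDs, made up 2127 and 1760 TPM of this in leaf and at most 32.15 TPM elsewhere. Without them leaf would not stand above root in the cytosolic sum. All these sums count a gene more than once where IDs are pieces of it. The plastid sums thus differed widely between leaf and the other organs, and the cytosolic sums much less. In 46 of the 105 members the organ with the highest mean was leaf, in 21 fruit, in 5 flower and in 33 root. Both leaf libraries lay above every other library in 36 members, 22 of them plastid.

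**Figure D1:**
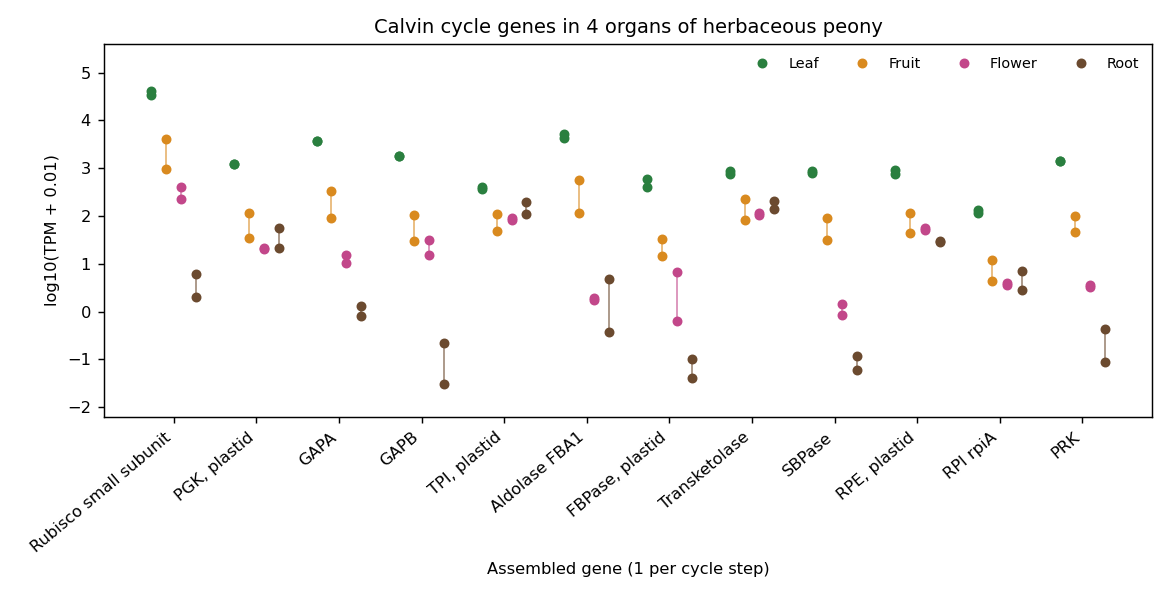
Level of 1 gene for each Calvin cycle step in each library, as log10(TPM + 0.01), with the 2 replicates of an organ joined by a line. Leaf is highest for each step, and fruit usually comes next. Root is the lowest organ for the Rubisco small subunit (2.01 and 6.10 TPM), GAPA, GAPB, FBPase, SBPase, PRK and plastid RPE. Plastid triose-phosphate isomerase and transketolase differ least.

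Leaf was set against each other organ in turn. Against root, 31 of the 102 members tested were higher in leaf and 14 lower, 45 in all, where 12.4% of all genes tested passed in either direction (7.92% higher, 4.45% lower). Against flower, 32 were higher in leaf and 10 lower, with a background of 19.3% (10% higher, 9.32% lower). Against fruit, 25 were higher in leaf and 10 lower, with a background of 9.64% (6.05% higher, 3.59% lower). These 3 comparisons share the leaf libraries, so their counts do not stand for separate evidence. The leaf against root count was 28 without leaf 1 and 27 without leaf 2. The leaf against flower count was 24 without leaf 1, 21 without leaf 2 and 24 without either flower library. The leaf against fruit count was 3 without leaf 1, 0 without leaf 2, 19 without fruit 1 and 1 without fruit 2. Without leaf 2, edgeR passed 0 genes of the whole table in leaf against fruit, and 46 members had an unadjusted p under 0.05.

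The steps of the cycle were next divided by compartment. Of 24 plastid IDs of carboxylation, reduction and regeneration, 23 were tested, and 17 were higher in leaf than in root, 18 higher than in flower and 15 higher than in fruit. These numbers describe the tested members, and the filter kept a member for being high in any organ. The median log2 fold change of these 23 was 7.64 against root, 5.39 against flower and 4.07 against fruit, where all genes tested had medians of -0.09, 0.13 and 0.01. One plastid ID, the transketolase comp22663_c0, was lower in leaf than in root and fruit. Of 13 cytosolic IDs of the same steps that were tested, 5 were higher in leaf than in root, 5 higher than in flower and 4 higher than in fruit, and none passed as lower. Each of these counts includes the aldolases comp16699_c0 and comp16699_c1, which varied like plastid IDs. The medians of the 13 were 1.85, 2.47 and 1.80. Over all stages, the cytosolic members had medians of -0.83, -0.25 and -0.41 and the plastid members 4.65, 3.59 and 2.97. The difference of the compartment medians was 5.48 against root, 3.84 against flower and 3.38 against fruit, and it kept its sign under each alternative tried.

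**Figure D2:**
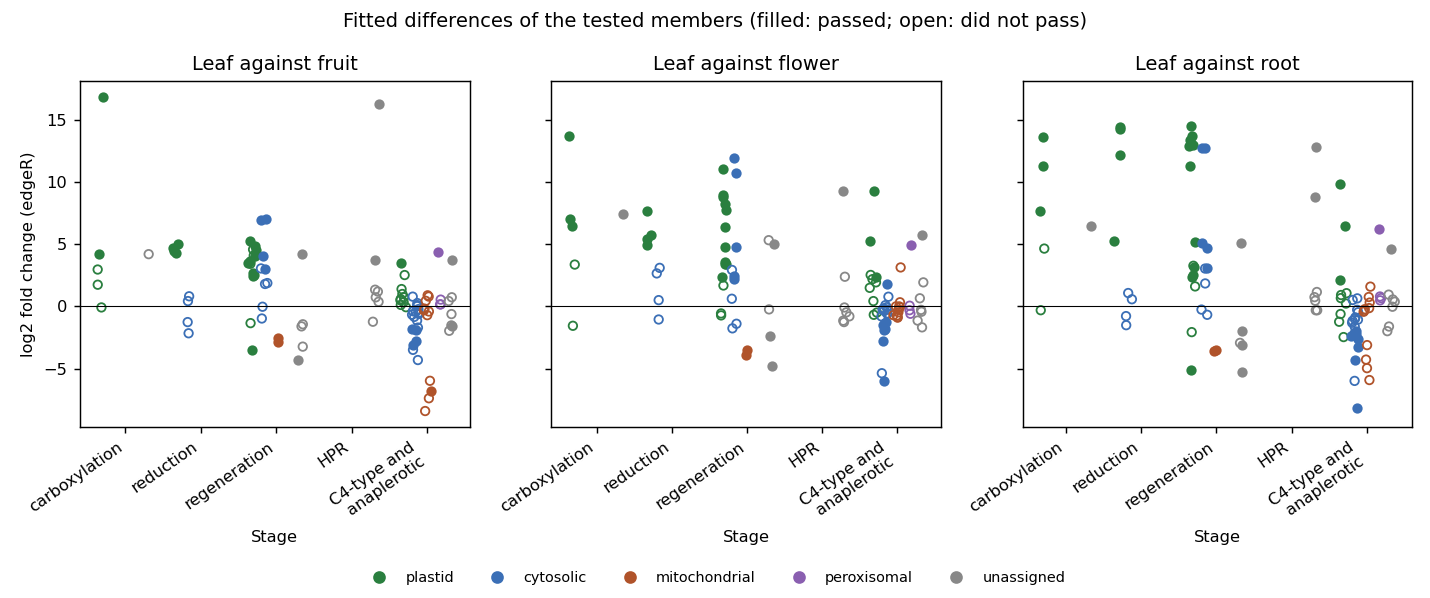
Log2 fold change of leaf against fruit, flower and root for each tested member, by stage and annotated compartment, with filled points for members that passed and open points for those that did not. Plastid members of carboxylation, reduction and regeneration lie mostly above 0 with a few exceptions, and C4-type members spread to both sides. Points near 16 in the fruit panel are genes with no count in fruit, for which the fitted value is not a bound.

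Rubisco was represented by a large subunit ID and 6 small subunit IDs. The main small subunit gene, RBCS comp23363_c0, had 34824 and 41186 TPM in leaf, 4049 and 967 TPM in fruit, 223 and 396 TPM in flower and 2.01 and 6.10 TPM in root. No 2 organs overlapped, and the gene ranked 2 and 1 among all genes in the leaf libraries, 14 and 63 in fruit and 634 and 315 in flower. It alone carried 60.6% and 65.3% of the plastid member TPM in leaf and 0.205% and 0.884% in root. The log2 fold change was 13.64 ± 1.40 for leaf against root (adjusted p = 0.0025), 6.47 ± 1.06 against flower (adjusted p = 0.00954) and 4.22 ± 0.96 against fruit (adjusted p = 0.0401). The root call was kept without each library in turn, the flower call was lost without leaf 2, flower 1 or flower 2 (adjusted p up to 0.0748), and the fruit call was lost without any leaf, flower or fruit library (up to 0.155).

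The smaller RBCS genes did not follow 1 pattern. RBCS comp14908_c0 had 187 and 779.9 TPM in leaf, 0 in both fruit libraries, 0 and 0.06 TPM in flower and 0.31 and 0.14 TPM in root. Nearly all of its reads were in leaf although the leaf replicates differed widely, and its CPM in leaf was at least 9851-fold above a floor of 3 counts over both fruit libraries. RBCS1 comp18372_c0 had 26.3 and 32.1 TPM in leaf, 33.6 and 9.87 TPM in fruit, 0 and 0.33 TPM in flower and 0.14 and 0.18 TPM in root. Leaf and fruit overlapped for this gene, and the difference between them did not pass (1.74 ± 1.03, adjusted p = 0.348), whereas leaf against flower (7.01 ± 1.36, adjusted p = 0.0158) and root (7.64 ± 1.36, adjusted p = 0.0148) did. Both calls were lost without either leaf library, and the root call without either root library (adjusted p up to 0.0864). Its deposited count and TPM imply an effective length that varied 2.39-fold between libraries. It was 812 and 641 bases in leaf and 339 and 384 bases in fruit. TPM is divided by this length, while the fitted fold changes use counts without it, so contrasts can differ between these measures.

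The small subunit ID comp17099_c0, which the annotation assigns to no compartment, had 13.9 and 23.0 TPM in leaf, 1.31 and 0.24 TPM in fruit, 0 and 0.12 TPM in flower and 0.09 and 0.26 TPM in root, so that leaf was clear of the other organs. It passed against flower (7.45 ± 1.45, adjusted p = 0.0162) and root (6.42 ± 1.31, adjusted p = 0.0237), calls lost without either leaf library and without flower 1 or either root library (adjusted p up to 0.126). RBCS-3B comp21534_c0 had 11.1 and 13.5 TPM in leaf, 15.8 and 14.3 TPM in fruit, 14.6 and 38.0 TPM in flower and 19.4 and 18.7 TPM in root. Both leaf libraries were the lowest for this ID, and no organ comparison passed. RBCS comp26172_c0 was found at 242 TPM in fruit 2 and at 0.19 and 0.30 TPM in leaf, with 0 in the other 5 libraries. The large subunit gene rbcL (comp24106_c0), which land plants carry on the chloroplast genome, had 299 and 94.4 TPM in leaf, 10.7 and 42.3 TPM in fruit, 2.34 and 28.3 TPM in flower and 17.1 and 1.65 TPM in root. The leaf libraries were above the others, but replicates of each organ differed widely and no comparison passed (leaf against root 4.65 ± 1.74, adjusted p = 0.139). Poly(A) selection captures chloroplast-encoded messages poorly, so rbcL levels are not comparable with those of RBCS.

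In the reduction steps the plastid isoforms were higher in leaf, and no cytosolic isoform on the map passed. GAPA (comp14930_c0), a subunit of the NADPH-using dehydrogenase of the cycle, had 3679 and 3791 TPM in leaf, 327 and 91.5 TPM in fruit, 15.3 and 10.6 TPM in flower and 0.82 and 1.29 TPM in root. The 4 organs did not overlap, in the order leaf, fruit, flower and root. Its log2 fold change was 12.18 ± 0.98 for leaf against root (adjusted p = 0.00178), 7.65 ± 0.82 against flower (adjusted p = 0.00347) and 4.45 ± 0.71 against fruit (adjusted p = 0.0144). GAPB, the partner subunit that carries a regulatory tail, appeared as 2 IDs of 1 component. The larger, comp11576_c0, had 1824 and 1762 TPM in leaf, 103 and 29.8 TPM in fruit, 31.5 and 15.3 TPM in flower and 0.02 and 0.21 TPM in root. Here fruit 2 lay below flower 1, so fruit and flower overlapped while leaf and root stood apart from them. The second ID, comp11576_c1, had 799 and 795 TPM in leaf, 58.4 and 16.6 TPM in fruit, 22.4 and 13.9 TPM in flower and 0 and 0.08 TPM in root. For GAPA and both GAPB IDs the leaf against root calls were kept without each library in turn, and the leaf against fruit calls were lost without leaf 1, leaf 2 or fruit 2, with adjusted p up to 0.136 for comp11576_c0, which was also lost without fruit 1. The leaf against flower call of comp11576_c0 was lost without any leaf or flower library (adjusted p up to 0.0741).

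Plastid phosphoglycerate kinase (comp22159_c0), which primes the product of Rubisco for reduction, had 1246 and 1199 TPM in leaf, 116 and 34.6 TPM in fruit, 21 and 20.3 TPM in flower and 55.4 and 21.6 TPM in root. Leaf was far above the rest, and fruit and root overlapped. The log2 fold change was 5.26 ± 0.83 against root (adjusted p = 0.00926), 5.39 ± 0.83 against flower (adjusted p = 0.00795) and 4.31 ± 0.79 against fruit (adjusted p = 0.0214). The flower call was lost without either flower library (adjusted p up to 0.0651) and the fruit call without any leaf or fruit library (up to 0.122). The most abundant cytosolic phosphoglycerate kinase, comp21305_c0, had 122 and 110.5 TPM in leaf, 288 and 326 TPM in fruit, 179 and 161 TPM in flower and 544 and 265 TPM in root. Both leaf values were the lowest, but no comparison passed (leaf against root -1.51 ± 0.57, adjusted p = 0.146). Of the other 3 cytosolic IDs, comp35004_c0 was at 0 in replicate 1 of leaf, flower and root and at 22.2, 11.6 and 51.5 TPM in their replicate 2, so its differences lay between replicates. The IDs comp5259_c0 and comp94708_c0 ran from 0.36 to 11.6 TPM.

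Aldolase joins triose phosphates in the stroma and splits hexose bisphosphate in glycolysis, and it had 10 IDs. FBA1 (comp15888_c0), annotated as plastid, had 5188 and 4249 TPM in leaf, 564 and 115 TPM in fruit, 1.88 and 1.75 TPM in flower and 0.36 and 4.89 TPM in root. Leaf and fruit stood above flower and root, which overlapped. Its log2 fold change was 11.27 ± 1.71 against root (adjusted p = 0.00823) and 11.03 ± 1.70 against flower (adjusted p = 0.00785), and 4.09 ± 1.26 against fruit did not pass (adjusted p = 0.0919). The flower call was lost without either flower library (adjusted p up to 0.0687).

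A set of 4 further aldolase IDs had the same order of leaf and fruit over flower and root, and this grouping was made after their values were seen. The plastid IDs comp5569_c0 and comp15487_c0 and the IDs comp16699_c0 and comp16699_c1, which the annotation words place in the cytosol, are short, at 205, 438, 612 and 687 bases, and may be pieces of 1 or more genes. With FBA1 they summed to 11294 and 9223 TPM in leaf, 827 and 170 TPM in fruit, 8.26 and 16.8 TPM in flower and 0.77 and 5.71 TPM in root. If some are pieces of 1 gene, this sum counts that gene more than once. The deposited values imply an effective length of 25.1 bases for comp5569_c0, so its 6028 leaf counts give a large TPM. The IDs placed in the cytosol behaved like the plastid ones: comp16699_c0 had 1315 and 1057 TPM in leaf, 20.1 and 3.70 TPM in fruit, 0.12 and 0.34 TPM in flower and 0.04 and 0.44 TPM in root. Its log2 fold change was 12.71 ± 1.30 against root (adjusted p = 0.00246), 11.96 ± 1.28 against flower (adjusted p = 0.00345) and 6.98 ± 1.02 against fruit (adjusted p = 0.0121), the last lost without leaf 1, leaf 2 or fruit 2 (up to 0.0702). The plastid ID comp5569_c0 had no count in root, and its CPM in leaf was at least 1863-fold above a floor of 3 counts over both root libraries, a call kept without each library in turn.

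The other 5 aldolase IDs summed to 165 and 180 TPM in leaf, 1340 and 1302 TPM in fruit, 1298 and 1410 TPM in flower and 1749 and 984 TPM in root, so that this group was lowest in leaf. FBA comp11537_c0 had 32.5 and 36.0 TPM in leaf, 700.2 and 791 TPM in fruit, 624 and 679 TPM in flower and 530.2 and 179 TPM in root. Leaf was lower than fruit (-4.32 ± 0.76, adjusted p = 0.019), flower (-4.75 ± 0.78, adjusted p = 0.0094) and root (-3.12 ± 0.72, adjusted p = 0.0356). FBA3 (comp7559_c0), annotated as mitochondrial, had 20.3 and 22.8 TPM in leaf, 157 and 128 TPM in fruit, 179 and 162 TPM in flower and 366 and 259 TPM in root. It too was lower in leaf than in the other 3 organs (-2.55 ± 0.42, -3.50 ± 0.43 and -3.55 ± 0.43 against fruit, flower and root, adjusted p = 0.0152, 0.0046 and 0.00415). FBA comp21133_c0 was lower in leaf than in flower (-2.39 ± 0.51, adjusted p = 0.0214) and root (-1.99 ± 0.50, adjusted p = 0.0482). Steadiness differed within this group. A second FBA3 ID, comp7559_c1, kept its calls against flower (-3.9) and root (-3.46) without each library in turn. Its fruit call (-2.87) was lost without leaf 1, leaf 2 or fruit 2. The calls of comp11537_c0 and comp21133_c0 against root were lost without any library other than root 2. Their flower calls were lost without either leaf library, for comp21133_c0 also without either flower library. Those of comp7559_c0 against flower and root were lost without leaf 2 (adjusted p = 0.0564 and 0.0514), and the fruit calls of comp11537_c0 and comp7559_c0 were lost without any leaf or fruit library (up to 0.156 and 0.133). Summed over all 10 IDs, aldolase had 11459 and 9402 TPM in leaf, 2167 and 1472 TPM in fruit, 1306 and 1427 TPM in flower and 1750 and 989 TPM in root, a much narrower range than that of the leaf-high set. The limits of adding possible pieces and of the short comp5569_c0 hold for this total too.

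**Figure D3:**
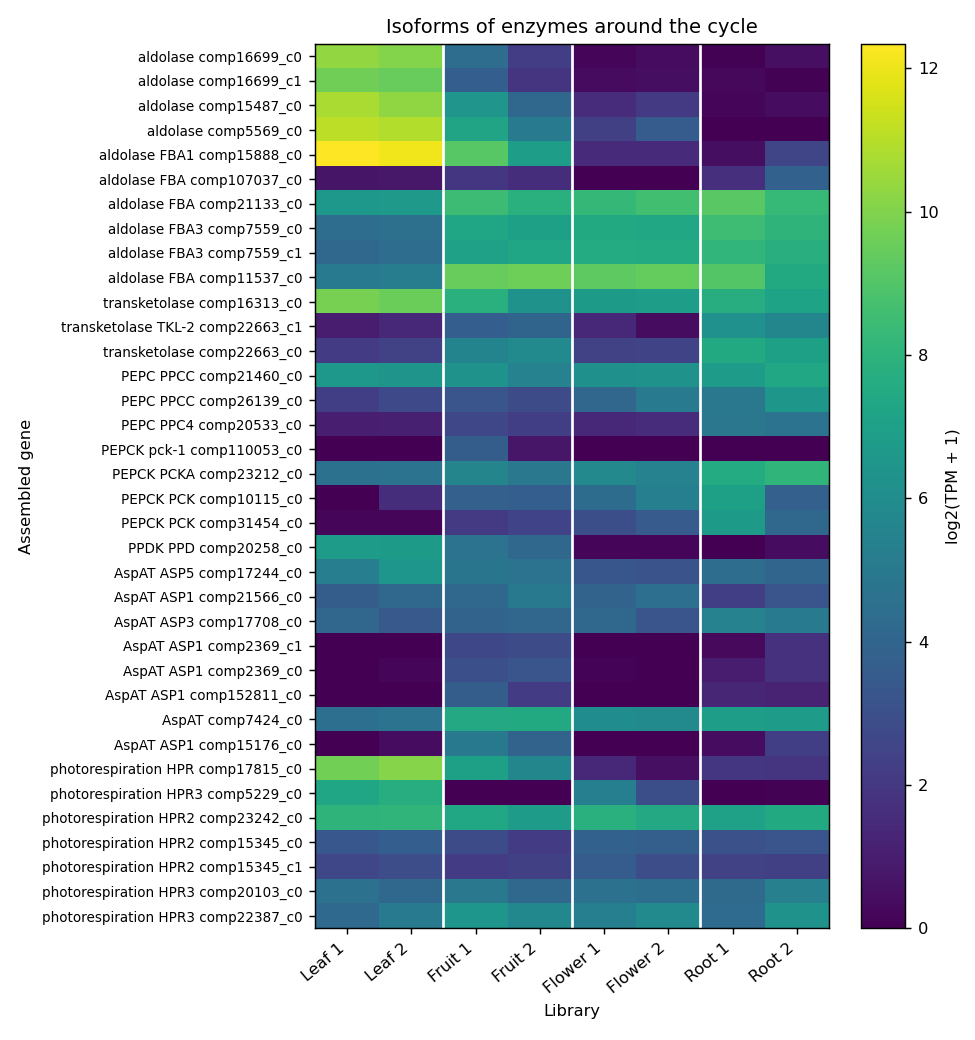
Heat map of log2(TPM + 1) in the 8 libraries for the IDs of aldolase, transketolase, PEP carboxylase (PEPC), PEP carboxykinase (PEPCK), PPDK, aspartate aminotransferase (AspAT) and hydroxypyruvate reductase (rows marked photorespiration) with a mean of at least 1 TPM, brighter for higher levels, with organs separated by white lines. Aldolase splits into 5 IDs that are bright in leaf and a group that is brightest outside leaf, and the transketolase IDs split likewise.

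Transketolase moves 2-carbon units in the cycle and in the pentose phosphate pathway, and it divided in the same manner. The plastid ID comp16313_c0 had 885 and 759 TPM in leaf, 228 and 80.7 TPM in fruit, 106 and 116 TPM in flower and 208 and 143 TPM in root. Leaf was clear of the other organs, which overlapped, and leaf was higher than fruit (2.70 ± 0.60, adjusted p = 0.0375), flower (2.40 ± 0.59, adjusted p = 0.033) and root (2.55 ± 0.59, adjusted p = 0.0363). Each of these calls was lost without either leaf library, either flower library or a library of the organ compared, with adjusted p up to 0.17. The transketolase comp22663_c0, a second plastid ID, had 3.65 and 4.38 TPM in leaf, 45.7 and 57.6 TPM in fruit, 4.48 and 4.75 TPM in flower and 177 and 127 TPM in root. Root was highest, fruit intermediate and leaf and flower low, and the log2 fold change was -5.12 ± 0.46 for leaf against root (adjusted p = 0.00196) and -3.52 ± 0.43 for leaf against fruit (adjusted p = 0.00895, up to 0.0777 without leaf 1, leaf 2 or fruit 2). TKL-2 (comp22663_c1), of the same component, had 1.01 and 1.64 TPM in leaf, 12.1 and 14.6 TPM in fruit, 1.66 and 0.35 TPM in flower and 75.1 and 49.3 TPM in root. It was lower in leaf than in root (-5.27 ± 0.89, adjusted p = 0.0118), a call lost without leaf 1 or leaf 2 (adjusted p up to 0.107).

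The phosphatases that make the cycle run in 1 direction were high in leaf. Sedoheptulose-bisphosphatase (At3g55800, comp21663_c0) had 791 and 892 TPM in leaf, 89.0 and 31.4 TPM in fruit, 1.44 and 0.84 TPM in flower and 0.05 and 0.11 TPM in root. The organs formed 4 steps without overlap, with log2 fold changes of 13.69 ± 0.90 for leaf against root (adjusted p = 0.00175), 8.97 ± 0.75 against flower (adjusted p = 0.00271) and 4.07 ± 0.60 against fruit (adjusted p = 0.0123). Plastid fructose-bisphosphatase FBP (comp16915_c0) had 396 and 588 TPM in leaf, 33.6 and 14.6 TPM in fruit, 6.78 and 0.64 TPM in flower and 0.03 and 0.09 TPM in root. It was higher in leaf than in root (13.36 ± 1.64, adjusted p = 0.00417) and flower (6.41 ± 1.23, adjusted p = 0.0153), and the difference from fruit did not pass (4.58 ± 1.12, adjusted p = 0.0506). The cytosolic fructose-bisphosphatase comp11674_c0, an enzyme of sucrose synthesis, had 486 and 527 TPM in leaf, 49.3 and 24.3 TPM in fruit, 17.2 and 8.44 TPM in flower and 15.8 and 23.0 TPM in root. This cytosolic isoform was thus also highest in leaf, by 5.09 ± 0.57 against root (adjusted p = 0.00323), 4.75 ± 0.57 against flower (adjusted p = 0.00427) and 4.02 ± 0.55 against fruit (adjusted p = 0.0105). Of the 6 fructose-bisphosphatase IDs tested, 4 were higher in leaf than in root, 5 than in flower and 3 than in fruit. The cytosolic IDs comp48970_c0 and comp55855_c0 had reads in replicate 1 but not replicate 2 of leaf, flower and root, and in replicate 2 but not replicate 1 of fruit, so no organ difference can be read from them. The leaf against root calls of comp21663_c0, comp16915_c0 and comp11674_c0 were kept without each library. Those of comp21663_c0 and comp11674_c0 against fruit were lost without leaf 1, leaf 2 or fruit 2 (adjusted p up to 0.0751), as was that of comp11674_c0 without fruit 1, and that of FBP comp16915_c0 against flower without either leaf library (up to 0.0676).

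Phosphoribulokinase (comp13848_c0), which makes the acceptor of CO2 and has no role outside the cycle, had 1392 and 1449 TPM in leaf, 98.6 and 45.5 TPM in fruit, 3.21 and 3.66 TPM in flower and 0.08 and 0.42 TPM in root. The 4 organs did not overlap, and leaf was higher than root (12.93 ± 1.01, adjusted p = 0.00177), flower (8.20 ± 0.85, adjusted p = 0.00326) and fruit (4.54 ± 0.72, adjusted p = 0.0142), the last lost without any leaf or fruit library (up to 0.1). The isomerases and epimerase that interconvert pentose phosphates reached lower contrasts. Plastid ribulose-phosphate epimerase RPE (comp21552_c0) had 762 and 922 TPM in leaf, 116 and 44.6 TPM in fruit, 57.1 and 51.2 TPM in flower and 28.3 and 29.7 TPM in root. Leaf was higher than root by 5.20 ± 0.52, than flower by 3.43 ± 0.47 and than fruit by 3.64 ± 0.48 (adjusted p = 0.00236, 0.00593 and 0.00984), the last lost without leaf 1, leaf 2 or fruit 2 (up to 0.0702). Its cytosolic counterpart Os09g0505700 (comp18511_c0) had 28.1 and 34.5 TPM in leaf, 113 and 35.4 TPM in fruit, 61.5 and 52.9 TPM in flower and 36.9 and 60.8 TPM in root, with leaf lowest and no comparison passed.

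All 3 ribose-phosphate isomerase IDs were higher in leaf than in root and flower. The isomerase rpiA (comp22714_c0) had 131 and 114 TPM in leaf, 12.3 and 4.40 TPM in fruit, 3.90 and 3.61 TPM in flower and 2.83 and 7.19 TPM in root. Leaf was clear of the rest, by 5.07 ± 0.41 against root, 5.02 ± 0.41 against flower and 4.20 ± 0.39 against fruit (adjusted p = 0.00178, 0.00258 and 0.00786), the last lost without leaf 2 (adjusted p = 0.0611). At2g01290 (comp21652_c0), annotated as cytosolic, had 596 and 645 TPM in leaf, 137 and 48.5 TPM in fruit, 84.5 and 71.7 TPM in flower and 32.6 and 27.9 TPM in root. It was higher in leaf than in root (4.69 ± 0.54, adjusted p = 0.00357), flower (2.47 ± 0.49, adjusted p = 0.0173) and fruit (3.01 ± 0.50, adjusted p = 0.0165). The flower call of At2g01290 was lost without any leaf or flower library (adjusted p up to 0.0969) and its fruit call without leaf 1, leaf 2 or fruit 2 (up to 0.0934).

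Triose-phosphate isomerase, which equilibrates the triose phosphates in both compartments, differed least. The plastid ID TPIP1 comp14500_c0 had 370.4 and 408 TPM in leaf, 110.1 and 48.2 TPM in fruit, 88.9 and 81.1 TPM in flower and 200.3 and 112 TPM in root. Leaf was above the others, and the difference passed against fruit (2.54 ± 0.53, adjusted p = 0.0312) but not against flower (1.68 ± 0.52, adjusted p = 0.063) or root (1.61 ± 0.51, adjusted p = 0.0933). The fruit call was lost without any leaf, flower or fruit library (adjusted p up to 0.17). The cytosolic ID TPIP1 comp16276_c0 had 1254 and 837 TPM in leaf, 307 and 360.0 TPM in fruit, 516 and 458 TPM in flower and 412 and 331 TPM in root. Here the cytosolic isoform was the more abundant in every library, leaf again was highest, and no comparison passed.

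To compare isoforms within a library, the summed TPM of plastid IDs was divided by that of cytosolic IDs for the 10 enzymes that had both, with GAPA and GAPB set against 5 cytosolic GAPC IDs that are not on the map. The phosphoglycerate kinase ratio was 9.78 and 7.94 in leaf and between 0.0662 and 0.353 in the other 6 libraries. The dehydrogenase ratio was 6.59 and 6.67 in leaf and between 0.000457 and 0.317 elsewhere. The epimerase ratio was 27.1 and 26.7 in leaf and between 0.681 and 1.36 elsewhere. For these enzymes the plastid form was the majority in leaf, while elsewhere the cytosolic kinase and dehydrogenase prevailed and the epimerases were near parity. Malate dehydrogenase had ratios of 1.93 and 2.47 in leaf and 0.0961 to 0.399 elsewhere, and aspartate aminotransferase 2.46 and 3.91 in leaf and 0.227 to 0.532 elsewhere. The NADP malic enzyme ratio was also highest in leaf, but at 0.0527 and 0.102 against 0.0150 to 0.0411 elsewhere the cytosolic form prevailed in every library. For these 6 enzymes both leaf libraries lay above the other 6 libraries in the ratio of sums. An exact two-sided permutation test of the log ratios, 2 leaf against 6 other libraries, gave p = 0.0714 for each of these 6 enzymes. Benjamini-Hochberg adjustment over the 10 enzymes made it 0.119. The value 0.0714 is the smallest this design allows and follows from the separation itself, so none can pass 0.05. The test therefore adds nothing to the separation. The 6 other libraries are also replicate pairs from fruit, flower and root, which the test treats as 1 group.

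The remaining 4 enzymes did not separate leaf in the ratio of sums. Triose-phosphate isomerase ratios were 0.285 and 0.477 in leaf and 0.124 to 0.408 elsewhere, and pyruvate kinase ratios 0.244 and 0.249 in leaf and 0.0838 to 0.299 elsewhere. Fructose-bisphosphatase ratios were 0.883 and 1.29 in leaf and 0.469 to 1.01 elsewhere, so these sums did not set leaf apart. Aldolase ratios were 4.31 and 4.24 in leaf and 1.96 to 25.2 elsewhere, and here the IDs counted as cytosolic were comp16699_c0 and comp16699_c1, which followed the plastid ones, while the FBA IDs high outside leaf are not counted in either compartment. The plastid aldolase sum includes comp5569_c0, with an implied effective length of 25.1 bases. With the most abundant ID of each compartment in place of the sum, NADP malic enzyme no longer separated leaf, with ratios of 0.0846 and 0.188 in leaf and up to 0.114 elsewhere, in flower 1. Fructose-bisphosphatase then did, with 0.815 and 1.11 in leaf and 0.0019 to 0.681 elsewhere. For aldolase, leaf then lay below every other library, at 3.95 and 4.02 against 5.15 to 31.2. The remaining enzymes separated leaf, or did not, as with the sums. The 5 GAPC IDs summed to 957 and 952 TPM in leaf, 1541 and 1664 TPM in fruit, 1051 and 1225 TPM in flower and 1839 and 1501 TPM in root. Leaf was thus lowest in this sum, although by a narrow margin to flower. The most abundant ID, GAPC2 comp16214_c0, was instead lowest in fruit, with 628 and 533 TPM in leaf and 423 and 280 TPM in fruit. None of the 5 passed against root or flower, while GAPC1 comp16018_c0 (-4.94 ± 0.64, adjusted p = 0.00947) and GAPC1 comp15725_c0 (-3.51 ± 0.78, adjusted p = 0.0386) were lower in leaf than in fruit.

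**Figure D4:**
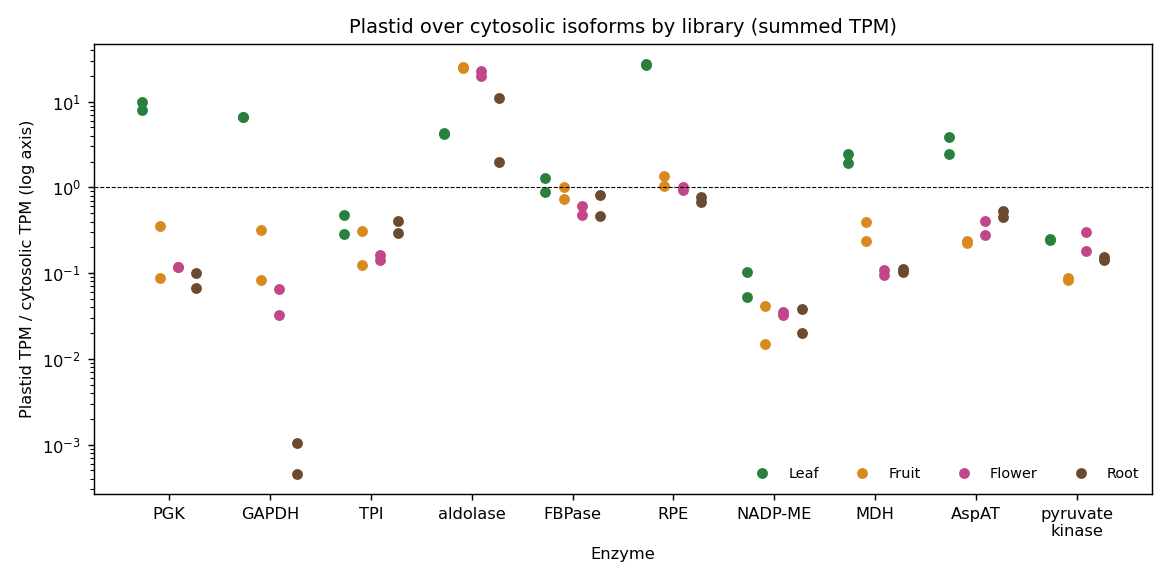
Summed TPM of plastid isoforms divided by summed TPM of cytosolic isoforms in each library, on a log axis with a dashed line at 1, for 10 enzymes and 4 organs. Leaf points sit above all others for PGK, GAPDH, RPE, NADP-ME, MDH and AspAT, with PGK at 9.78 and 7.94 in leaf, and mix with other organs for TPI, FBPase and pyruvate kinase, while aldolase in leaf is within the range of the others.

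The C4-type and anaplerotic enzymes of the map did not share the pattern of the cycle. Of 51 tested, 5 were higher in leaf than in root and 8 lower, 6 higher than in flower and 6 lower, and 3 higher than in fruit and 6 lower, with median log2 fold changes of -0.43, -0.27 and -0.22. Over all genes tested, 7.92% were higher in leaf than in root and 4.45% lower, 10% higher than in flower and 9.32% lower, and 6.05% higher than in fruit and 3.59% lower. The C4-type counts against flower, and those of members higher in leaf than in root or fruit, are near that background. None of the 19 cytosolic IDs among them had its highest mean in leaf or flower, 6 had it in fruit and 13 in root. PEP carboxylase, which fixes bicarbonate to form oxaloacetate, had 3 IDs. PPCC comp21460_c0, the most abundant, had 96.0 and 81.5 TPM in leaf, 77.4 and 43.1 TPM in fruit, 71.7 and 77.4 TPM in flower and 111 and 170.0 TPM in root. Root was highest and no comparison passed. The next 2 IDs were picked out after their values were seen. PPC4 (comp20533_c0) had 1.02 and 1.12 TPM in leaf, 5.10 and 3.83 TPM in fruit, 1.63 and 1.92 TPM in flower and 28.8 and 24.9 TPM in root. Leaf was lowest and root highest without overlap, and the log2 fold change of leaf was -4.32 ± 0.34 against root (adjusted p = 0.00177), -1.23 ± 0.30 against flower (adjusted p = 0.034) and -1.88 ± 0.31 against fruit (adjusted p = 0.0156). PPCC comp26139_c0 had 3.82 and 5.63 TPM in leaf, 8.70 and 6.42 TPM in fruit, 15.9 and 31.6 TPM in flower and 29.9 and 91.2 TPM in root, and was lower in leaf than in root (-3.25 ± 0.50, adjusted p = 0.00847) and flower (-2.81 ± 0.49, adjusted p = 0.0113). The root call of PPC4 was kept without each library, and its other calls, like both of PPCC comp26139_c0, were lost without either leaf library (adjusted p up to 0.237).

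PEP carboxykinase, which releases CO2 from oxaloacetate in gluconeogenesis, was lowest in leaf by sum, at 24.4 and 27.4 TPM, against 75.0 and 47.3 TPM in fruit, 82.2 and 93.4 TPM in flower and 427 and 296 TPM in root. PCKA (comp23212_c0) had 24.2 and 25.1 TPM in leaf, 47.4 and 30.2 TPM in fruit, 55.7 and 43.4 TPM in flower and 192 and 267 TPM in root. Root was clear of the other organs, and leaf was lower than root (-2.58 ± 0.56, adjusted p = 0.0289), a call lost without any leaf, fruit or root library (up to 0.209). PCK comp31454_c0 was also lower in leaf than in root (-8.15 ± 1.38, adjusted p = 0.012) and flower (-6.01 ± 1.29, adjusted p = 0.0215), with 0.15 and 0.18 TPM in leaf, 3.21 and 4.65 TPM in fruit, 6.68 and 10.5 TPM in flower and 105 and 16.4 TPM in root. Both calls were lost without either leaf library (up to 0.148). For PCKA the effective length implied by the deposited values varied 2.48-fold between libraries. The ID pck-1 comp110053_c0 was seen only in fruit, at 11.4 and 0.66 TPM, and was not tested. The 6 cytosolic pyruvate kinases, which end glycolysis, summed to 166 and 170 TPM in leaf, 607 and 394 TPM in fruit, 219 and 171 TPM in flower and 658 and 504 TPM in root. Leaf and flower were low and fruit and root high in this sum. The most abundant of them, comp14183_c0, had 49.4 and 54.3 TPM in leaf, 275 and 146 TPM in fruit, 49.7 and 43.0 TPM in flower and 89.7 and 92.6 TPM in root, and was lower in leaf than in fruit (-1.80 ± 0.37, adjusted p = 0.0304). That call was lost without any leaf, flower or fruit library (up to 0.228).

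Pyruvate phosphate dikinase, which regenerates PEP from pyruvate in the plastid, was an exception. PPD comp20258_c0 had 107 and 104 TPM in leaf, 25.4 and 16.9 TPM in fruit, 0.11 and 0.14 TPM in flower and 0.01 and 0.33 TPM in root. Leaf and fruit held it and flower and root were close to 0, with leaf higher than root by 9.83 ± 1.45 (adjusted p = 0.00756) and than flower by 9.24 ± 1.43 (adjusted p = 0.00797), and 2.52 ± 1.04 against fruit did not pass (adjusted p = 0.186). The flower call was lost without either flower library (adjusted p up to 0.0747). Malic enzyme makes pyruvate and reducing power from malate. Of its 5 NADP-type IDs, 0 passed between leaf and root, 1 was higher in leaf than in flower and 1 was lower in leaf than in fruit. The cytosolic NADP malic enzyme comp22631_c0 had 114 and 118 TPM in leaf, 415 and 187 TPM in fruit, 19.1 and 29.6 TPM in flower and 352 and 594 TPM in root. Fruit and root were high and flower low, and leaf was higher than flower (1.78 ± 0.43, adjusted p = 0.0314), a call lost without any leaf or flower library (up to 0.164). EXLB1 comp21798_c0, a malic enzyme by its KEGG annotation although the symbol elsewhere names an expansin-like protein, had 42.0 and 59.9 TPM in leaf, 151 and 92.4 TPM in fruit, 24.8 and 15.7 TPM in flower and 36.4 and 52.1 TPM in root. Fruit was highest, and leaf was lower than fruit (-1.59 ± 0.33, adjusted p = 0.0298), a call lost without any leaf or fruit library (up to 0.198). The most abundant NAD malic enzyme, the mitochondrial comp17885_c0, stayed between 27.1 and 64.5 TPM over all libraries and did not pass.

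Malate dehydrogenase, which interconverts malate and oxaloacetate and so shuttles reducing power between compartments, had 16 IDs, of which 2 were higher in leaf than in each other organ. The peroxisomal comp17719_c0 had 754 and 785 TPM in leaf, 63.5 and 27 TPM in fruit, 14.5 and 21.2 TPM in flower and 11.2 and 15.4 TPM in root. Leaf was higher than root by 6.23 ± 0.50, than flower by 4.95 ± 0.47 and than fruit by 4.34 ± 0.46 (adjusted p = 0.00178, 0.00285 and 0.00786). The plastid MDH1 comp17726_c0 had 439 and 490.0 TPM in leaf, 78.4 and 24.5 TPM in fruit, 10.6 and 6.27 TPM in flower and 6.24 and 6.89 TPM in root. It too was far above in leaf, by 6.50 ± 0.67 against root (adjusted p = 0.00251), 5.25 ± 0.63 against flower (adjusted p = 0.00433) and 3.45 ± 0.58 against fruit (adjusted p = 0.0166). Both fruit calls were lost without leaf 2 or fruit 2, and that of MDH1 also without leaf 1 (adjusted p up to 0.092). The cytosolic CMDH comp20844_c0 went the other way, with 144 and 135 TPM in leaf, 315 and 181 TPM in fruit, 309 and 245 TPM in flower and 325 and 335 TPM in root. Leaf was lowest, and the difference passed against flower (-1.50 ± 0.41, adjusted p = 0.0446) but not without any 1 of the 8 libraries (up to 0.299). The mitochondrial MMDH comp16010_c0, of the respiratory cycle, ranged from 50.6 to 146 TPM and did not pass.

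Aminotransferases, which exchange amino groups between amino and keto acids, split by ID. GGAT2 (comp22500_c0), by name a glutamate-glyoxylate aminotransferase of peroxisomal photorespiration, had 682 and 866 TPM in leaf, 87.5 and 47.0 TPM in fruit, 11.9 and 7.96 TPM in flower and 41.1 and 36.5 TPM in root. Leaf was higher than root (4.64 ± 0.53, adjusted p = 0.00336), flower (5.74 ± 0.56, adjusted p = 0.003) and fruit (3.74 ± 0.51, adjusted p = 0.0105), the last lost without any leaf or fruit library (up to 0.0736). The plastid aspartate aminotransferase ASP5 (comp17244_c0) had 38.0 and 88.9 TPM in leaf, 26.6 and 25.2 TPM in fruit, 8.84 and 7.88 TPM in flower and 20.6 and 15.2 TPM in root. Leaf was higher than flower (2.36 ± 0.48, adjusted p = 0.0182) and root (2.10 ± 0.47, adjusted p = 0.0332), the root call being lost without any 1 of the 8 libraries (adjusted p up to 0.164) and the flower call without leaf 2 or either flower library (up to 0.101). The cytosolic comp7424_c0 had 21.9 and 25.2 TPM in leaf, 173 and 181 TPM in fruit, 63.7 and 59.0 TPM in flower and 119.9 and 111 TPM in root. It was lowest in leaf and highest in fruit without overlap, by -1.98 ± 0.39 against root, -1.92 ± 0.39 against flower and -2.75 ± 0.40 against fruit (adjusted p = 0.0208, 0.0183 and 0.0121), calls that were each lost without either leaf library (adjusted p up to 0.154). Of 5 ASP1 IDs annotated as mitochondrial, 4 had fruit levels of 3.36 to 30.9 TPM and at most 0.33 TPM in leaf and 0.10 TPM in flower. They were picked out after their values were seen, and they rest on few reads. Over both fruit libraries comp15176_c0, comp2369_c1 and comp152811_c0 had 179, 98 and 56 counts. Only comp2369_c0 passed as lower in leaf than in fruit (-6.80, adjusted p = 0.0341), a call lost without any library but flower 1.

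Hydroxypyruvate reductase differed among its 7 IDs. HPR (comp17815_c0) had 842 and 1114 TPM in leaf, 128 and 49.6 TPM in fruit, 1.65 and 0.41 TPM in flower and 2.81 and 2.62 TPM in root. Leaf and fruit stood apart from flower and root, and leaf was higher than root by 8.82 ± 0.99 (adjusted p = 0.00321), than flower by 9.28 ± 1.01 (adjusted p = 0.00352) and than fruit by 3.71 ± 0.79 (adjusted p = 0.0328), the last lost without any leaf or fruit library (up to 0.175). HPR2 comp23242_c0, named for the cytosolic form known from Arabidopsis, had 262 and 272 TPM in leaf, 162 and 113 TPM in fruit, 226 and 176 TPM in flower and 134 and 179 TPM in root. Leaf was highest by little, and no comparison passed. HPR3 comp5229_c0, picked out after its values were seen, had 157 and 208 TPM in leaf, 0 in both fruit libraries, 38.9 and 6.70 TPM in flower and 0.02 and 0.04 TPM in root. Its reads were thus in leaf and flower and at or near 0 in fruit and root, with leaf CPM at least 6532-fold above a floor of 3 counts over both fruit libraries, although the adjusted p of that difference was up to 0.0611 without leaf 1, leaf 2 or fruit 2. The other 4 HPR2 and HPR3 IDs stayed between 3.51 and 89.8 TPM, and of these HPR2 comp15345_c0 was lower in fruit than in flower (-2.14 ± 0.51, adjusted p = 0.0383), a call lost without each of the 8 libraries in turn.

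Other genes that serve Rubisco or photorespiration were taken from a list made by symbol or description. The list had 43 IDs that are not on the map, of which 17 were higher in leaf than in root and 1 lower, 21 higher than in flower and 2 lower, and 13 higher than in fruit and none lower, with medians of 1.41, 1.80 and 1.18. The background of genes higher in leaf was 7.92% against root, 10% against flower and 6.05% against fruit. Rubisco activase RCA1 (comp20240_c0), which frees the active site of Rubisco, had 8238 and 6127 TPM in leaf, 468 and 133 TPM in fruit, 13.5 and 9.63 TPM in flower and 1.04 and 2.82 TPM in root. The organs were ordered as for RBCS, with 12.32 ± 1.19 for leaf against root (adjusted p = 0.00223). CP12-1 (comp7132_c0), a small protein that ties up GAPDH and phosphoribulokinase in the dark, had 5062 and 4005 TPM in leaf, 1296 and 398 TPM in fruit, 1684 and 2277 TPM in flower and 8.38 and 40.9 TPM in root. Leaf against flower did not pass for CP12-1 (0.73 ± 0.74, adjusted p = 0.527), while GAPA, both GAPB IDs and phosphoribulokinase passed there. CP12-3 (comp17077_c0) had 26.1 and 9.19 TPM in leaf, 208 and 95.4 TPM in fruit, 302 and 135 TPM in flower and 71.0 and 104 TPM in root, and was lower in leaf than in flower (-4.12 ± 0.76, adjusted p = 0.0139). The carbonic anhydrase comp19171_c0, which hydrates CO2, had 8107 and 8996 TPM in leaf, 191 and 35.9 TPM in fruit, 0.46 and 0.44 TPM in flower and 0.52 and 0.75 TPM in root. It was far higher in leaf than in flower (13.69 ± 1.21, adjusted p = 0.00279) and root (14.10 ± 1.22, adjusted p = 0.00192), and flower and root overlapped.

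Along the photorespiratory route, the glycolate oxidase GLO1 comp7434_c0 had 2861 and 2725 TPM in leaf, 401 and 131 TPM in fruit, 23.1 and 10.2 TPM in flower and 0.08 and 0.64 TPM in root. The glycine decarboxylase subunit GDCSH (comp14978_c0) had 2344 and 2586 TPM in leaf, 169 and 55.1 TPM in fruit, 0.22 and 0.64 TPM in flower and 0.13 and 0.11 TPM in root. Both were clear of the other organs in leaf, by 13.42 ± 1.44 and 14.60 ± 0.96 against root (adjusted p = 0.00285 and 0.00175). A second GLO1 ID, comp17295_c0, was lower in leaf than in root (-1.69 ± 0.40, adjusted p = 0.0373). The further subunits GDCSP and GDCST, the aminotransferase AGT1, glycerate kinase GLYK, the phosphatase PGLP1A and catalase CAT1 were likewise higher in leaf than in root, flower and fruit, with log2 fold changes from 2.71 for CAT1 against fruit to 6.91 for AGT1 against root. The serine hydroxymethyltransferase comp7283_c0 had 1066 and 1581 TPM in leaf, 65.7 and 31.6 TPM in fruit, 84.9 and 132 TPM in flower and 6.33 and 4.51 TPM in root, with flower above fruit. It was higher in leaf than in root, flower and fruit, and the other 9 serine hydroxymethyltransferase IDs did not pass against root or fruit, while 3 of them were higher in leaf than in flower. Of 9 chaperonin IDs of the CPN60 and CPN21 type, whose plastid forms fold Rubisco, 2 were higher in leaf than in root, 6 higher than in flower and none higher than in fruit, and none was lower. The 2 that passed against root were both CPN60B4: comp3719_c0 had 18.1 and 30 TPM in leaf, 2.76 and 1 TPM in fruit, 0.25 and 0 TPM in flower and 0.17 and 0.20 TPM in root (7.34 ± 1.24 for leaf against root, adjusted p = 0.0121), and comp4755_c0 differed by 5.95 ± 1.26 (adjusted p = 0.0272). CPN60B1 (comp21326_c0) had 41.5 and 61.7 TPM in leaf, 22.7 and 23.8 TPM in fruit, 4.44 and 7.28 TPM in flower and 53.5 and 30.9 TPM in root, with flower low and leaf and root overlapping.

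**Figure D5:**
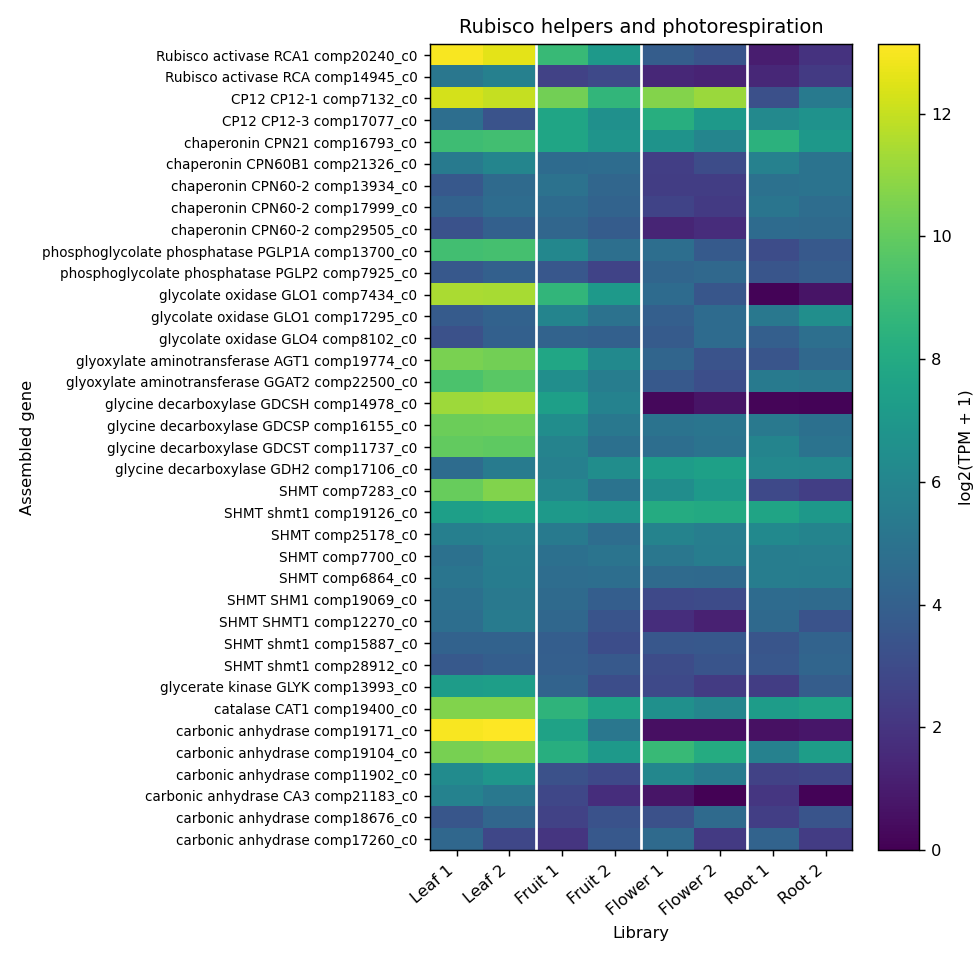
Heat map of log2(TPM + 1) in the 8 libraries for genes that serve Rubisco or photorespiration and have a mean of at least 10 TPM, grouped by function, brighter for higher levels. Activase RCA1, carbonic anhydrase comp19171_c0 and at least 1 ID of each photorespiration enzyme are bright in leaf. Other IDs of the same enzymes, such as GLO4, PGLP2, GDH2 and most serine hydroxymethyltransferases, are not. CP12-1 is bright in leaf, flower and fruit (5062, 1684 and 1296 TPM in their first replicates), less so in fruit 2 (398 TPM), and lowest in root.

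The other organs were compared among themselves, again with shared libraries. Fruit against root gave 14 members higher and 2 lower of 102, with a background of 2.06% (1.24% higher, 0.816% lower). Of the 23 plastid IDs of the cycle tested, 9 were higher in fruit than in root and none lower, with a median of 1.68 beside -0.01 for all genes. They included RBCS comp23363_c0 (9.41 ± 1.21, adjusted p = 0.0228), GAPA (7.73 ± 0.83, adjusted p = 0.0163), phosphoribulokinase comp13848_c0 (8.38 ± 0.86, adjusted p = 0.0163) and At3g55800 (9.62 ± 0.79, adjusted p = 0.0117). The 2 lower members were the PEP carboxylases PPC4 (-2.44 ± 0.31, adjusted p = 0.0228) and PPCC comp26139_c0 (-2.73 ± 0.49, adjusted p = 0.0468). At3g55800 lost its call without root 1 (adjusted p = 0.0544), GAPA and RBCS comp23363_c0 lost theirs without leaf 1, leaf 2 or root 1 among others (up to 0.0913), phosphoribulokinase without either leaf library or flower 2 (up to 0.053), PPC4 without any library but root 2 (up to 0.106) and PPCC comp26139_c0 without any 1 (up to 0.212). The count of 16 depended on which libraries entered: it was 1 without leaf 1 or leaf 2, which enter through the shared spread, 7 without flower 1, 6 without flower 2, 7 without either fruit library, 2 without root 1 and 11 without root 2.

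Flower against root gave 14 members higher and 7 lower, at a background of 20.6% (11.2% higher, 9.39% lower), and the 21 of 102 called are near that share. The balance of the calls depended on the scaling: with total-count scaling in place of TMM it was 11 higher and 13 lower, and with limma on log2(TPM + 1) 7 higher and 16 lower. With total-count scaling the median over all genes was -0.87 in place of -0.17. The 10 plastid cycle IDs higher in flower included RBCS comp23363_c0 (7.17 ± 1.10, adjusted p = 0.00899), GAPB comp11576_c0 (8.71 ± 1.18, adjusted p = 0.00666) and FBP comp16915_c0 (6.95 ± 1.33, adjusted p = 0.0166). Members lower in flower than in root included the transketolase comp22663_c0 (-4.39 ± 0.44, adjusted p = 0.00382) and the malic enzyme comp22631_c0 (-3.40 ± 0.46, adjusted p = 0.00661). The call of FBP comp16915_c0 was lost without either root library (adjusted p up to 0.09) and that of comp22631_c0 without flower 1 (0.0537). The count of 21 was 11 without flower 1, 12 without flower 2 and 12 without root 1.

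Fruit against flower gave 17 members higher and 3 lower, at a background of 14.7% (6.65% higher, 8.06% lower), and 29 higher and 1 lower with total-count scaling, where the median over all genes was 0.81 in place of 0.16. Of the plastid IDs of the cycle, 7 of 23 were higher in fruit, among them At3g55800 (4.90 ± 0.63, adjusted p = 0.00827), phosphoribulokinase comp13848_c0 (3.65 ± 0.69, adjusted p = 0.0199), FBA1 (6.94 ± 1.44, adjusted p = 0.0259) and GAPA (3.19 ± 0.67, adjusted p = 0.0262). Neither the main RBCS gene comp23363_c0 (2.24 ± 0.88, adjusted p = 0.13) nor GAPB comp11576_c0 (0.66 ± 0.82, adjusted p = 0.615) passed. HPR3 comp5229_c0 was lower in fruit than in flower, by at least 1031-fold in CPM, and kept that call without each library. The call of At3g55800 was lost without flower 2 (0.0525), and those of phosphoribulokinase, FBA1 and GAPA without either flower library or fruit 1 (up to 0.143). The count of 20 was 9 without either leaf library, 4 without flower 1, 3 without flower 2, 7 without fruit 1 and 10 without fruit 2. Without both flower 2 and fruit 2, edgeR passed 0 members in fruit against flower, fruit against root, leaf against flower and leaf against fruit, where 30, 37, 51 and 48 members had an unadjusted p under 0.05. The other tools were not run without these libraries. The counts were then 35 for leaf against root and 6 for flower against root.

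The 2 fruit libraries differed in the cycle. Of the 23 plastid cycle IDs with reads in fruit 2, 19 had the higher TPM in fruit 1, and the median ratio of fruit 1 to fruit 2 was 2.84, beside 1.43 over all genes at 1 TPM or more in both. The ratio was 3.82 for the summed antenna and photosystem genes. RBCS comp23363_c0 differed in the same direction, with 4049 TPM in fruit 1 and 967 TPM in fruit 2. Seed storage genes were at 2056 TPM in fruit 1 and 188618 TPM in fruit 2, and their part in this difference was not tested.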

How the data were processed

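RNA-seq libraries from leaf, fruit, flower and root (2 each) were made from poly(A) RNA, per the labels' protocols. The authors deposited 1 table of de novo assembled genes with an estimated count, a TPM value and an RPKM value for each library, and the length of each gene in bases, per the file headers. Assembler, aligner, counter and strandedness are not stated in the labels or headers, and there are no genome coordinates. The deposited RPKM values were proportional to TPM within each library (largest coefficient of variation of their ratio 0.00021) and were not used further.

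Compartments, roles and members came from the table's annotation, and the members and gene lists were chosen with earlier results of these data known. Estimated counts were rounded and tested with edgeR 4.0.16 (R 4.3.3): TMM scaling, a filter by organ that removed 2238 genes, and a quasi-likelihood fit of all 8 libraries with organ as the only term (4 residual degrees of freedom). TMM factors ran from 0.581 in flower 2 to 1.43 in root 2. DESeq2 1.42.0, limma 3.58.1 on log2(TPM + 1) or log2(TPM + 0.1), total-count scaling without the 20 highest genes, no filter, a replicate block and each library left out were alternatives. The scripts were tested on simulated data. Named genes were the RBCS, GAPA and GAPB IDs with a mean of at least 1 TPM. The ID with the highest mean for each enzyme and compartment was added. So were at most 2 members a stage that passed in the opposite direction, or for the C4-type stage at most 2 in each direction. Members described beyond these, among them PPC4, PPCC comp26139_c0, HPR3 comp5229_c0, PCK comp31454_c0, comp22663_c0, comp5569_c0, comp35004_c0 and comp48970_c0, were chosen after their values were seen.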

Additional observations from a re-analysis of the deposited data

How the results depend on the processing

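Among the 144 fold changes of named members in the leaf comparisons, 48 values under an alternative had the opposite sign, none of which passed there or in the fit reported, and the plastid minus cytosolic medians kept their sign. In flower against root, 14 members were higher and 7 lower, against 11 and 13 with total-count scaling, 7 and 16 with limma on log2(TPM + 1), 10 and 19 on log2(TPM + 0.1) and 7 and 15 at a mean of at least 1 TPM, so more were then lower than higher. Members called numbered 45 for leaf against root, 42 for leaf against flower, 35 for leaf against fruit, 21 for flower against root, 16 for fruit against root and 20 for fruit against flower. With 1 library left out in turn they ranged from 27 to 43, from 21 to 43, from 0 to 37, from 11 to 19, from 1 to 11 and from 3 to 16 in the same order. Without both flower 2 and fruit 2, chosen after seeing the data, they were 35, 0, 0, 6, 0 and 0. DESeq2 called 34 in fruit against root and 34 in fruit against flower, and limma on log2(TPM + 0.1) called 31 in fruit against flower. With the replicate block they were 46, 44, 38, 22, 14 and 21. Replicate 1 minus replicate 2 correlated over genes at 0.384 to 0.489 among leaf, flower and root and at -0.156 to 0.101 between fruit and each of these, a hint in the data that numbers go together outside fruit. The labels tie no number to a plant or batch and not every pair of organs correlated, so the replicate block was kept as an alternative.

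The plastid minus cytosolic median was 5.48, 3.84, 3.38, 0.64, 0.70 and 0.73 (log2) in that order, and with 1 library left out it ranged from 5.41 to 5.98, 3.84 to 5.00, 2.85 to 3.60, 0.12 to 0.71, 0.49 to 1.30 and 0.68 to 1.17. It was 6.01 for leaf against root with limma on log2(TPM + 0.1) and 4.91 with limma at a mean of at least 1 TPM. It was 4.44 for leaf against flower with DESeq2 and 4.43 without a filter. It was 1.08 for fruit against root with the replicate block and 1.11 with limma on log2(TPM + 0.1). Without flower 2 and fruit 2 it was 4.85 for leaf against flower, 2.85 for leaf against fruit, 0.17 for flower against root and 1.43 for fruit against flower. The cause of these shifts was not tested. With members at 0 set to their bound, the median of the plastid cycle IDs in fruit against flower was 1.21 in place of 1.07.

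Under total-count scaling the median over all genes was -0.55 in place of -0.09 for leaf against root, 0.36 in place of 0.13 for leaf against flower and -0.38 in place of 0.01 for leaf against fruit. Over 144 fold changes of named members and these settings, 1973 values kept their call or its absence, 264 lost it and 67 gained it. Of the named leaf calls, 20 of 30 against root, 13 of 30 against flower and 0 of 24 against fruit were kept without each library in turn. Depth did not limit the abundant members, while IDs under 1 TPM rest on few reads. So do some short IDs at higher TPM, such as ASP1 comp15176_c0.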
